A study of Homo sapiens with 12 samples.

Results

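The 10 genes described here are the receptors and ligands of the ERBB system and the adaptor gene GRB7, chosen by name from the 26475 gene symbols of the deposited counts. They comprise 4 receptor genes (EGFR, ERBB2, ERBB3 and ERBB4), 5 ligand genes (AREG, EREG, HBEGF, TGFA and BTC) and 1 gene for a receptor-binding adaptor (GRB7), and each of the 10 was found in the count table. RNA was sequenced from the human ovarian teratocarcinoma line PA-1, grown in DMEM, and the human ovarian adenocarcinoma line SK-OV3, grown in RPMI. Each line was treated for 48 h with vehicle (DMSO) or with 5 µM BAY-850, a small molecule inhibitor of the chromatin protein ATAD2, which gave 12 libraries in 4 groups of 3 biological replicates. Each histology is therefore represented by 1 line in 1 medium, and cell line and medium cannot be told apart.

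The ERBB receptors are tyrosine kinases of the plasma membrane that signal as pairs. Ligands such as amphiregulin (AREG), epiregulin (EREG), heparin-binding EGF-like growth factor (HBEGF), transforming growth factor alpha (TGFA) and betacellulin (BTC) are made as membrane proteins, released by proteases, and bind EGFR, some of them ERBB4 as well. ERBB2 has no known ligand of its own and pairs with the other receptors, ERBB3 has a weak kinase and binds neuregulins, and the pairs signal to the RAS-ERK and PI3K-AKT pathways. GRB7 is an adaptor that docks on activated ERBB2, and its gene lies beside ERBB2 on chromosome 17. SK-OV3 is widely known as a line with extra copies of ERBB2, although DNA was not measured in these samples.

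Library totals ranged from 34544505 to 51840233 counts. Between 17425 and 18414 genes were detected per library, with the exception of the SK-OV3 library BAY-850 replicate 3, where the total was highest and only 15629 genes were detected. Responses to BAY-850 in SK-OV3 were therefore also computed without that library. This was done for the 10 genes, the genes from PPP1R1B to GRB7, DUSP6 and PIK3R3. Ribosomal RNA accounted for 7.94% to 16.9% of a library. All 7 markers of pluripotent cells had a mean of at least 1 CPM (counts scaled to a common library total) in PA-1, where they summed to 1372 to 1649 CPM, against 6.32 to 10.4 CPM in SK-OV3, where SOX2 and DPPA4 were at 0 in the DMSO libraries. All 8 epithelial markers reached a mean of 1 CPM in SK-OV3 and 6 of 8 in PA-1, where KRT7 and EPCAM stayed below it. With DMSO, KRT18 alone was higher in PA-1 (324.7 to 342.9 CPM) than in SK-OV3 (257.7 to 281.5 CPM). KRT8 was at 504.4 to 558.1 CPM in PA-1 and 587.6 to 618.3 CPM in SK-OV3. The epithelial sum in SK-OV3 was 1852 to 2027 CPM with DMSO and 1419 to 1508 CPM with BAY-850, a difference carried by the keratins and EPCAM, while CLDN4 was higher with BAY-850 (34.2 to 38.3 CPM against 56.8 to 67.3 CPM) and CDH1 and MUC1 overlapped. In PA-1 the sum was 891 to 948 CPM with DMSO and 965 to 1018 CPM with BAY-850. The part of these markers in the results below was not tested. The 4 blood markers summed to at most 1.22 CPM in every library, and the 3 endothelial markers to 34.4 to 41.5 CPM in PA-1 and 2.73 to 4.25 CPM in SK-OV3.

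Which receptors and ligands the untreated lines carried was examined first, in the 3 DMSO libraries of each line. SK-OV3 cells held far more ERBB2 RNA than PA-1 cells, and they also held more EGFR, GRB7 and AREG RNA together with ERBB4, EREG, TGFA and BTC RNA that was at or near 0 in PA-1. ERBB3 was the exception among the receptors and was higher in PA-1. HBEGF was the 1 gene that did not pass the test. Of the 10 genes, 8 were higher and 1 was lower in SK-OV3 at an adjusted p under 0.05 by edgeR's quasi-likelihood test, while 40.1% of the 16070 genes tested were higher and 40.2% were lower, so a difference between the lines was common among all genes. ERBB4, EREG, TGFA and BTC passed the filter on low counts only through their counts in SK-OV3. Their calls as higher there were therefore close to fixed in advance and are given as descriptions. Levels are CPM scaled by edgeR's TMM factors, and in such bulk samples fewer cells of a kind and less RNA per cell cannot be told apart.

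ERBB2 (chromosome 17, 39687914 to 39730426 on the plus strand, GRCh38) stood at 61.0, 60.1 and 62.8 CPM in the 3 PA-1 libraries and at 2144, 2483 and 2622 CPM in the 3 SK-OV3 libraries. The groups were far apart, with a 39.3-fold higher level in SK-OV3 (log2 difference of 5.30, SE 0.081, edgeR adjusted p = 2.36e-14). By CPM, ERBB2 ranked 13 of 26475 genes in SK-OV3 and 3373 in PA-1, and it alone took 0.246% of all SK-OV3 counts. Per kilobase of exon, it ranked 81 of the 24627 genes with a known length in SK-OV3.

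EGFR (chromosome 7, 55019021 to 55211628, plus strand), the receptor for EGF itself, was measured at 15.8, 16.6 and 18.7 CPM in PA-1 and at 56.4, 70.2 and 81.7 CPM in SK-OV3. All SK-OV3 libraries lay above all PA-1 libraries, a 4.07-fold difference (log2 2.02, SE 0.12, edgeR adjusted p = 6.6e-09). ERBB3 (chromosome 12, 56076799 to 56103505, plus strand), the neuregulin receptor, showed the opposite order, with 9.34, 9.69 and 9.42 CPM in PA-1 and 1.31, 1.46 and 1.32 CPM in SK-OV3. Its level in SK-OV3 was 6.97-fold lower (edgeR adjusted p = 1.10e-08).

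ERBB4 (chromosome 2, 211375717 to 212538841, minus strand), the other neuregulin receptor, had 0, 0 and 2 counts in the PA-1 DMSO libraries and 392, 405 and 458 counts in those of SK-OV3. The ratio of the summed counts, corrected for depth, was 621 (exact 95% interval of 172 to 5136, which covers counting error only), and it rests on 2 counts in PA-1. Thus all 4 receptor genes were transcribed in SK-OV3, while PA-1 carried 3 of them above the filter on low counts.

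Among the ligands, HBEGF (chromosome 5, 140332843 to 140346631, minus strand) was at 34.2, 28.7 and 35.0 CPM in PA-1 and at 34.4, 37.9 and 34.7 CPM in SK-OV3. These ranges overlapped, and the log2 difference was 0.12 (95% interval of -0.07 to 0.32, edgeR adjusted p = 0.208). AREG (chromosome 4, 74445134 to 74455009, plus strand) was at 2.26, 2.57 and 2.41 CPM in PA-1 and at 5.26, 4.84 and 4.79 CPM in SK-OV3, a 2.05-fold difference (edgeR adjusted p = 3.4e-04). Both ligands were thus present in both lines, AREG at the lower level.

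The remaining 3 ligands separated the lines almost completely. TGFA (chromosome 2, 70447280 to 70554193, minus strand) had 4, 23 and 4 counts in PA-1, or 0.116, 0.51 and 0.113 CPM. In SK-OV3 it was at 54.9, 57.3 and 59.8 CPM, a log2 difference of 7.72. PA-1 replicate 2 held most of the PA-1 counts, and the log2 difference without it was 8.92. EREG (chromosome 4, 74365143 to 74388751, plus strand) had 2, 5 and 12 counts in PA-1, or 0.0578, 0.111 and 0.34 CPM. In SK-OV3 it was at 4.53, 5.40 and 5.39 CPM, a log2 difference of 4.91, or 5.82 without PA-1 replicate 3. BTC (chromosome 4, 74744759 to 74794686, minus strand) had 0 counts in every PA-1 library, DMSO and BAY-850 alike, and 63, 88 and 70 counts in the SK-OV3 DMSO libraries. Against a floor of 3 counts over the PA-1 DMSO group, which is 0.0261 CPM, BTC was at least 72.9-fold higher in SK-OV3 at its measured count there, and with counting error in both groups the exact 95% interval of the ratio begins at 58.8.

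GRB7 (chromosome 17, 39737927 to 39747291, plus strand) followed ERBB2 in this comparison. It was at 1.91, 1.89 and 1.67 CPM in PA-1 and at 49.8, 48.1 and 44.9 CPM in SK-OV3, a 26.0-fold difference (log2 4.70, SE 0.11, edgeR adjusted p = 5.51e-13). The plot of the 10 genes by library shows these levels together with those after treatment.

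**Figure D1:**
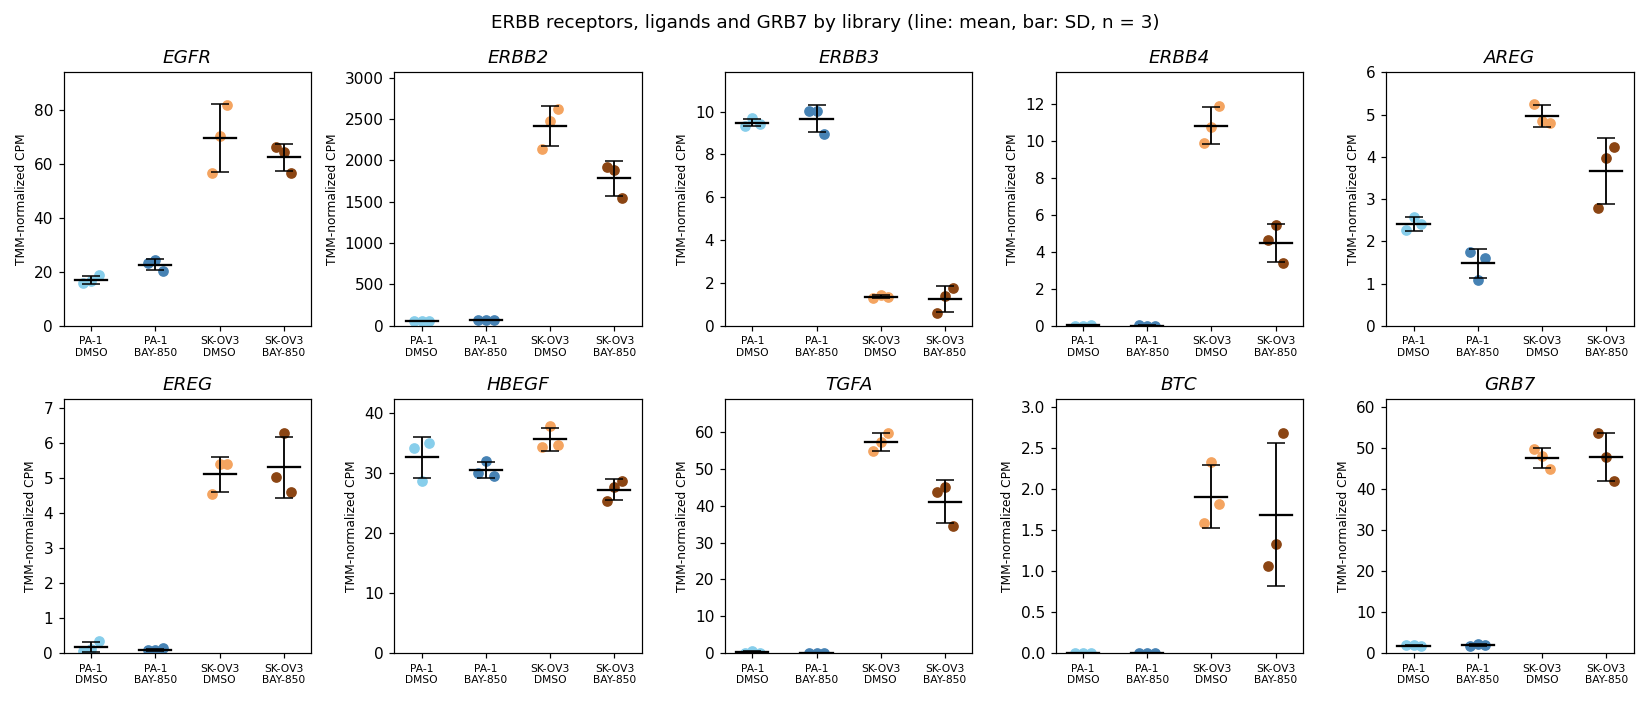
TMM-normalized CPM (vertical axis, from 0) of each of the 10 genes in each of the 12 libraries, with 1 point per library, the group mean as a line and the SD as a bar (n = 3). ERBB2 lies between 2144 and 2622 CPM in SK-OV3 with DMSO and between 1541 and 1925 CPM with BAY-850, and BTC is at 0 in all PA-1 libraries.

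For comparison between genes, levels were divided by the length of the exons. In SK-OV3 with DMSO, ERBB2 stood at 234 ± 23.8 CPM per kilobase (SD, n = 3). GRB7 (13.2 ± 0.699), HBEGF (11.8 ± 0.644) and TGFA (11.55 ± 0.494 CPM per kilobase) came next, and the libraries of neighbours in that order overlapped. EGFR (5.55 ± 1.01) and AREG (3.01 ± 0.154) followed, and then EREG, ERBB4 and BTC, between 0.893 and 0.678 CPM per kilobase and again overlapping, with ERBB3 lowest at 0.151 ± 0.009 CPM per kilobase. In PA-1 the order began with HBEGF (10.8 ± 1.13) and ERBB2 (5.94 ± 0.132), followed by AREG (1.46 ± 0.0961) and EGFR (1.36 ± 0.122 CPM per kilobase), whose libraries overlapped, then ERBB3 at 1.05 ± 0.0202 and GRB7 at 0.506 ± 0.0367 CPM per kilobase.

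Expressed as shares of the summed CPM per kilobase of the 4 receptors, ERBB2 made up 97.3% ± 0.183 in SK-OV3 with DMSO and 71.1% ± 0.809 in PA-1 with DMSO (SD, n = 3). EGFR made up 2.29% and 16.3%, ERBB3 0.063% and 12.6%, and ERBB4 0.346% and 0.0168%. ERBB2 was therefore the leading receptor RNA in both lines, but only in PA-1 did EGFR and ERBB3 hold more than a few percent each. Among the 5 ligands, HBEGF made up 87.4% ± 2.15 in PA-1 and 42.2% ± 1.29 in SK-OV3, where TGFA held a nearly equal share of 41.3% ± 1.48. AREG had similar shares of 11.9% ± 1.75 and 10.8% ± 0.888. These shares are descriptions with no test. Ligand genes outside the 5 are not in these sums. Among them, EGF and NRG1 were at 20.6 and 20.8 CPM in PA-1 with DMSO. In SK-OV3 with DMSO, NRG1 was at 24.5 CPM and EGF did not pass the filter on low counts for the comparison with BAY-850.

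**Figure D2:**
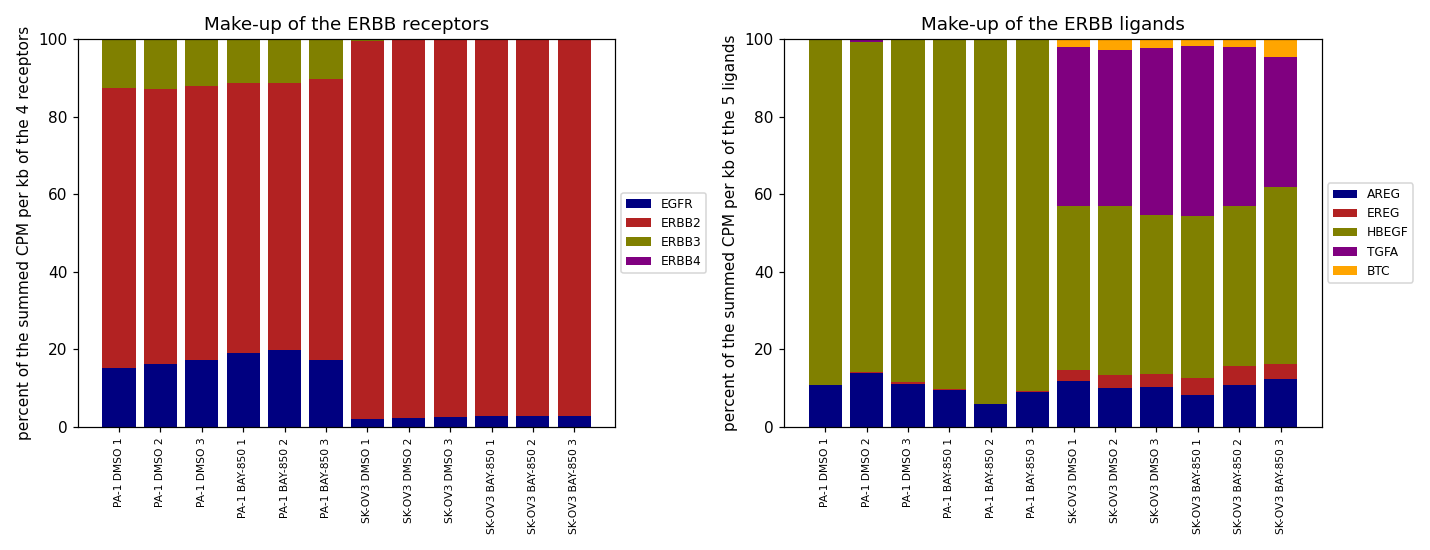
Share of each gene (percent, stacked to 100) in the summed CPM per kilobase of the 4 ERBB receptors (left) and of the 5 ligands (right), with 1 bar per library. ERBB2 fills 97.1% to 97.5% of the receptor bars of SK-OV3 with DMSO, and TGFA fills 40.1% to 43.0% of the ligand bars there and under 1% in PA-1.

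The region around ERBB2 was examined next, since GRB7 and several other genes lie close to it. Within 1000 kb on either side of its start, 64 genes of the count table were annotated and 45 could be tested between the lines. The genes nearest to ERBB2 were much higher in SK-OV3 than in PA-1, and the difference did not extend evenly over the window. Of the 45 genes, 32 were higher and 9 were lower in SK-OV3 (edgeR, adjusted p under 0.05), with a median log2 difference of 0.80, against 0.002 over all genes tested. A log2 difference of at least 1 in favour of SK-OV3 was found for 21 of the 45 (46.7%) and for 22.1% of all genes tested. Both shares include genes that passed the filter on low counts only through SK-OV3.

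Between PPP1R1B and GRB7, a stretch of 120.6 kb that was delimited after the values were seen, 8 of 9 genes could be tested, and each was higher in SK-OV3 by a log2 difference of 2.68 to 12.1 (median 4.19). The largest was that of PPP1R1B, which encodes an inhibitor of protein phosphatase 1 and was at 0.121 CPM in PA-1 and 544 CPM in SK-OV3. The log2 differences of the other genes in the stretch were 2.68 for STARD3, a cholesterol transfer protein, 3.22 for TCAP, 5.01 for PNMT, the enzyme that makes adrenaline, 3.20 for PGAP3 and 3.68 for MIEN1. PPP1R1B, TCAP and PNMT rest on only 14, 27 and 31 counts in PA-1, which limits the largest value of the range as well. In the rest of the window, 37 genes had a median of 0.59, and 13 of them reached a log2 difference of 1. Among these were MLLT6 (2.22), LASP1 (2.01), CWC25 (1.73) and CDK12 (1.46) before ERBB2, and PSMD3 (1.53), THRA (1.78), NR1D1 (2.22), MSL1 (1.12), WIPF2 (1.06), GJD3 (3.38) and TNS4 (2.81) after it. NEUROD2 and IKZF3 also passed but rest on 1 and 2 counts in PA-1, and TNS4 rests on 10, and these 3 stayed below 1 CPM in SK-OV3. Like PPP1R1B, TCAP and PNMT, they passed the filter on low counts only through SK-OV3. The calls of all these genes as higher there were close to fixed in advance, and the counts and medians above include them.

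**Figure D3:**
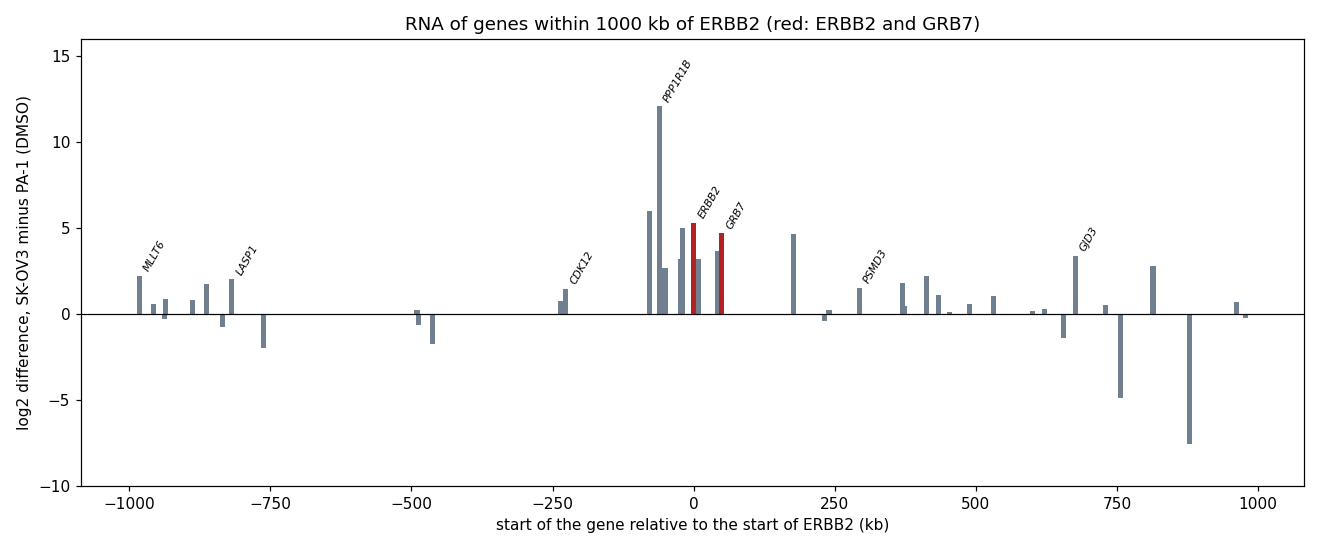
Log2 difference of RNA between SK-OV3 and PA-1 with DMSO (vertical axis) for the 45 tested genes within 1000 kb of ERBB2, placed by the distance of each start from that of ERBB2 in kb (horizontal axis), with ERBB2 and GRB7 in red and some genes named. The bars nearest to ERBB2 reach 2.68 to 12.1, and those farther away lie on both sides of 0.

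ERBB2 shares sequence with 2 neighbours. It overlaps most of MIEN1 and the start of PGAP3, both on the opposite strand, and whether strand was used in the counting is not stated, so reads in the overlaps cannot be told apart between these genes.

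How the receptors responded to BAY-850 was then examined within each line, and the response differed between the lines. In SK-OV3, BAY-850 treatment resulted in downregulation of ERBB2 and ERBB4. In PA-1, by contrast, EGFR was upregulated. Of the 10 genes, 0 rose and 4 fell in SK-OV3, where 10.8% of the 15348 genes tested rose and 9.56% fell. In PA-1, 6 of the 10 genes passed the filter on low counts, of which 1 rose and 0 fell, where 4.65% of the 15212 genes tested rose and 2.48% fell. With DESeq2, too, 0 of them rose in SK-OV3 and 0 fell in PA-1. At an unadjusted p under 0.05 in edgeR, 0 rose in SK-OV3 and 1, AREG, was lower in PA-1. The comparisons within a line use the same DMSO libraries as the comparison between the lines.

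ERBB2 RNA in SK-OV3 was at 2144, 2483 and 2622 CPM with DMSO and at 1925, 1881 and 1541 CPM with BAY-850. Each BAY-850 library was below each DMSO library, and the level fell to 0.744 of that with DMSO (log2 fold change of -0.43, SE 0.080, edgeR adjusted p = 0.00324). Without BAY-850 replicate 3, which was the lowest library, the log2 fold change was -0.34 (edgeR adjusted p = 0.00261). ERBB2 remained the leading receptor RNA at 96.9% ± 0.131 of the receptor sum, and it ranked 23 of 26475 genes by CPM after treatment.

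ERBB4 showed the largest fold change of the 10 genes in SK-OV3. It was at 9.86, 10.7 and 11.9 CPM with DMSO and at 4.63, 5.42 and 3.39 CPM with BAY-850. These groups were clearly separate, with a 2.40-fold lower level after treatment (log2 fold change of -1.26, SE 0.18, edgeR adjusted p = 5.65e-04). Without BAY-850 replicate 3 the log2 fold change was -1.10 (edgeR adjusted p = 1.55e-04).

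EGFR in SK-OV3 was at 56.4, 70.2 and 81.7 CPM with DMSO and at 66.0, 64.5 and 56.5 CPM with BAY-850. The groups overlapped, and the log2 fold change of -0.14 did not pass the test (95% interval of -0.39 to 0.10, edgeR adjusted p = 0.407). It was -0.27 without DMSO replicate 1 (edgeR adjusted p = 0.0522) and -0.011 without DMSO replicate 3 (edgeR adjusted p = 0.964). ERBB3, at 1.31 to 1.46 CPM with DMSO, ranged from 0.590 to 1.77 CPM with BAY-850, and its interval of -1.13 to 0.91 leaves a fall or a rise of about that size undetermined at this depth. The summed receptor level in SK-OV3, most of which was ERBB2, was 241 ± 24.9 CPM per kilobase with DMSO and 178 ± 20.8 CPM per kilobase with BAY-850 (SD, n = 3).

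In PA-1, EGFR rose from 15.8, 16.6 and 18.7 CPM with DMSO to 23.1, 24.4 and 20.4 CPM with BAY-850. All treated libraries were above all DMSO libraries, a 1.33-fold increase (log2 fold change of 0.41, SE 0.097, edgeR adjusted p = 0.0198). The call was lost without DMSO replicate 1 or 2 or without BAY-850 replicate 1 or 2, with adjusted p-values of 0.0602 to 0.115 in edgeR, with scaling by library size only (adjusted p = 0.0971) and with all 12 libraries in 1 fit (adjusted p = 0.0754), while the log2 fold change stayed between 0.36 and 0.49 in all 16 alternatives.

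ERBB2 in PA-1 was at 61.0, 60.1 and 62.8 CPM with DMSO and at 69.7, 69.7 and 70.7 CPM with BAY-850. The treated libraries lay above the others, but the difference of 14.4% missed the threshold (log2 fold change of 0.19, SE 0.057, edgeR adjusted p = 0.0529). It passed with DESeq2 (adjusted p = 0.0208) and with no filter on low counts in edgeR (adjusted p = 0.0452), and removing each library's trend on GC content left a log2 fold change of 0.096 (edgeR adjusted p = 0.360). ERBB3 was at 9.34 to 9.69 CPM with DMSO and at 8.95 to 10.0 CPM with BAY-850, with a log2 fold change of 0.03 (95% interval of -0.21 to 0.27), and ERBB4 had 1 count in the 3 treated libraries together.

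**Figure D4:**
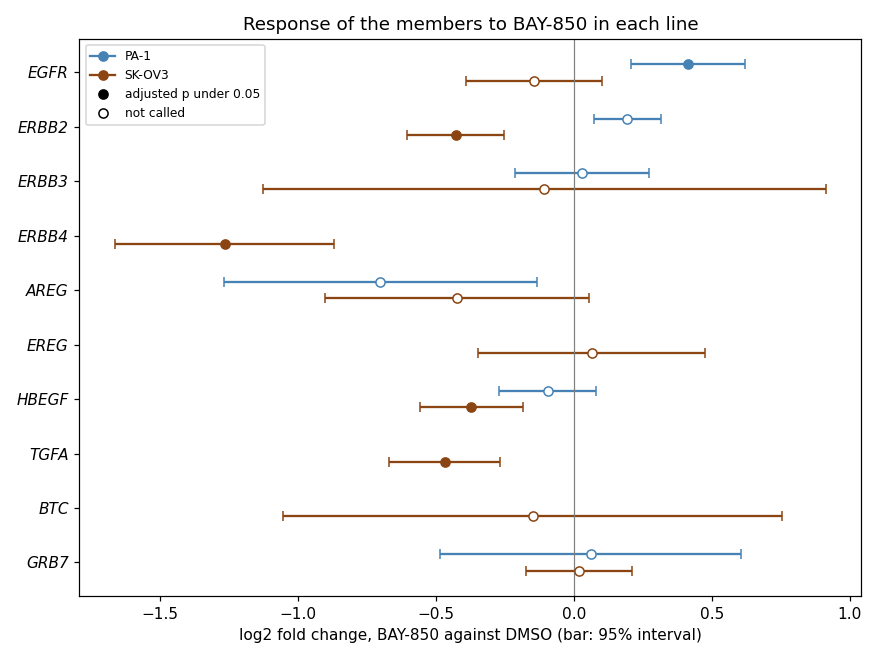
Log2 fold change of BAY-850 against DMSO (horizontal axis) for each gene, with the 95% interval as a bar, PA-1 in blue and SK-OV3 in brown, and filled points for an adjusted p under 0.05. ERBB2 is at -0.43 in SK-OV3 and 0.19 in PA-1, EGFR is at -0.14 and 0.41, and genes below the filter in PA-1 have no blue point.

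Whether a gene responded differently in the 2 lines was tested with an interaction term in a fit of all 12 libraries, for the 6 genes that passed the filter in both lines. Of these 6, 2 had a response in SK-OV3 that was lower than in PA-1 and 0 had a higher one, where 7.77% of the 16830 genes tested were called lower and 6.7% higher. Those 16830 genes also include genes that did not pass the filter in both lines. At an unadjusted p under 0.05 in edgeR, and with DESeq2, 0 of the 6 had a higher response in SK-OV3. For ERBB2, the response in SK-OV3 minus that in PA-1 was -0.63 on the log2 scale (SE 0.11, edgeR adjusted p = 0.00166). For EGFR it was -0.57 (SE 0.17, edgeR adjusted p = 0.0329), but that call was lost in 11 of 21 alternatives, among them the replicate number as a block (edgeR adjusted p = 0.0511) and leaving out any of 7 single libraries, while that of ERBB2 held in all 21. For HBEGF, the difference between the responses was -0.29 (95% interval of -0.54 to -0.03, edgeR adjusted p = 0.126), which did not pass. For AREG, ERBB3 and GRB7 the adjusted p-values in edgeR were 0.679, 0.868 and 0.910.

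The ligands were examined in the same way. In SK-OV3, BAY-850 treatment lowered HBEGF and TGFA, the 2 ligand genes with the most RNA, and 3 ligand genes did not pass the test. HBEGF was at 34.4, 37.9 and 34.7 CPM with DMSO and at 25.4, 27.7 and 28.7 CPM with BAY-850, without overlap (log2 fold change of -0.37, SE 0.085, edgeR adjusted p = 0.00990). This call was lost without DMSO replicate 2 (adjusted p = 0.0651) and with the GC trend removed (adjusted p = 0.0551), both in edgeR. Without BAY-850 replicate 3 it held (log2 fold change of -0.42, edgeR adjusted p = 0.00262).

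TGFA was at 54.9, 57.3 and 59.8 CPM with DMSO and at 43.9, 45.1 and 34.5 CPM with BAY-850. Again the groups did not overlap (log2 fold change of -0.47, SE 0.091, edgeR adjusted p = 0.00404), and without BAY-850 replicate 3 the log2 fold change was -0.36 (edgeR adjusted p = 0.00172). After treatment, HBEGF and TGFA held shares of the ligand sum of 42.9% ± 2.47 and 39.4% ± 5.31. The log2 ratio of TGFA to HBEGF was 0.67, 0.60 and 0.79 with DMSO and 0.79, 0.70 and 0.27 with BAY-850, so the treatments overlapped and BAY-850 replicate 3 was lowest.

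AREG in SK-OV3 was at 5.26, 4.84 and 4.79 CPM with DMSO and at 2.78, 3.98 and 4.23 CPM with BAY-850. The libraries did not overlap, yet the log2 fold change of -0.42 did not pass the test (SE 0.22, edgeR adjusted p = 0.204), and this gene rested on 113 to 227 counts per library. In PA-1, AREG was at 2.26, 2.57 and 2.41 CPM with DMSO and at 1.75, 1.09 and 1.61 CPM with BAY-850, on 43 to 116 counts, and there too the groups were separate without passing the test (log2 fold change of -0.70, SE 0.27, edgeR adjusted p = 0.123). AREG was thus lower in all 6 treated libraries than in all DMSO libraries of the same line, and did not pass in any alternative that gave an adjusted p in either line. In PA-1, 3 of the 6 genes tested had libraries that did not overlap between the treatments, against 27.5% of all genes tested. In SK-OV3 it was 5 of 10, against 38.6%.

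EREG and BTC, both low in SK-OV3, overlapped between the treatments. EREG ranged from 4.53 to 5.40 CPM with DMSO and from 4.60 to 6.28 CPM with BAY-850 (log2 fold change of 0.06, 95% interval of -0.35 to 0.48), and BTC from 1.58 to 2.33 CPM and from 1.06 to 2.68 CPM (log2 fold change of -0.15, 95% interval of -1.05 to 0.75). The highest BTC level was that of BAY-850 replicate 3, in which fewest genes were detected, and the log2 fold change without that library was -0.68 (edgeR adjusted p = 0.160). HBEGF in PA-1 was at 28.7 to 35.0 CPM with DMSO and 29.4 to 31.9 CPM with BAY-850, with a log2 fold change of -0.09 (95% interval of -0.27 to 0.08). TGFA and EREG had 3 to 5 counts in each treated PA-1 library. The summed ligand level in SK-OV3 was 27.9 ± 0.912 CPM per kilobase with DMSO and 21.1 ± 1.07 with BAY-850, and in PA-1 it was 12.4 ± 1.02 and 11.0 ± 0.251 CPM per kilobase (SD, n = 3).

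GRB7 did not follow ERBB2 in the response to treatment. In SK-OV3 it was at 49.8, 48.1 and 44.9 CPM with DMSO and at 53.7, 47.9 and 41.9 CPM with BAY-850. These libraries overlapped fully, and the log2 fold change was 0.02 (95% interval of -0.17 to 0.21, edgeR adjusted p = 0.913). The log2 ratio of ERBB2 to GRB7 within a library was 5.43, 5.69 and 5.87 with DMSO and 5.16, 5.29 and 5.20 with BAY-850. The ratio was lower in each treated library, by 0.44 on average (exact permutation test, two-sided, p = 0.1, the smallest p that 3 against 3 libraries allow), and by 0.34 to 0.56 when any 1 library was left out. In PA-1, GRB7 was at 1.67 to 1.91 CPM with DMSO and 1.67 to 2.19 CPM with BAY-850, with a wide interval of -0.48 to 0.61 for the log2 fold change.

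The other genes of the PPP1R1B to GRB7 stretch did not all respond alike to BAY-850 in SK-OV3. Besides ERBB2, PPP1R1B (log2 fold change of -0.70, edgeR adjusted p = 1.83e-06), PNMT (-0.74, edgeR adjusted p = 0.0188) and MIEN1 (-0.41, edgeR adjusted p = 2.08e-04) fell, whereas STARD3 (0.09), TCAP (0.14) and PGAP3 (-0.13) did not pass the test. The call of PNMT was lost in 4 of 16 alternatives. The log2 ratio of ERBB2 to MIEN1, which overlap, was 2.65, 2.74 and 2.84 with DMSO and 2.85, 2.74 and 2.58 with BAY-850 in SK-OV3, without separation of the treatments, and in PA-1 the ratio was higher by 0.46 in the treated libraries (exact permutation test, p = 0.1, the smallest possible). Over the whole window, 44 genes were tested in SK-OV3, of which 6 rose and 10 fell, where 10.8% of all genes tested rose and 9.56% fell.

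The stretches before the starts of 5 of the genes are shown, those with a long enough run of bases outside annotated exons. Among these genes, ERBB4 and HBEGF fell in SK-OV3 and EGFR rose in PA-1. AREG and EREG are ligand genes of the same chromosome with different levels in PA-1. The stretches come from RefSeq on GRCh38.p14, which had entries for 8 of the 10 genes in 10 windows of 300 bases. Each window has 250 bases before the start and 50 after it, and only bases that overlap no annotated exon are printed. Capitals mark matches, on either strand, to TGACGTCA (the cAMP response element), TGANTCA (the AP-1 element), GGGCGG (the GC box, CCGCCC on the other strand), CCAAT and TATAAA (the TATA box). Matches to the same motif may overlap, as GGGCGG does once in HBEGF.
ERBB4, chr2:212538842-212539052, minus strand: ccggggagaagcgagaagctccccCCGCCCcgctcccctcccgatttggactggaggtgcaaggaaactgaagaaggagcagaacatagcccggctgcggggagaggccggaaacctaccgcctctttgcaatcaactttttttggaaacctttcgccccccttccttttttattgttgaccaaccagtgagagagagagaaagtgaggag
EGFR, chr7:55018767-55019016, plus strand: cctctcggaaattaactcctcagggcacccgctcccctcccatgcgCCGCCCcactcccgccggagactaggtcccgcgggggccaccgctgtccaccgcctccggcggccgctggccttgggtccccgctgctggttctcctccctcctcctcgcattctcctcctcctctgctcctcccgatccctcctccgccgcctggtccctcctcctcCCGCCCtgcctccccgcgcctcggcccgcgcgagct
HBEGF, chr5:140346632-140346853, minus strand: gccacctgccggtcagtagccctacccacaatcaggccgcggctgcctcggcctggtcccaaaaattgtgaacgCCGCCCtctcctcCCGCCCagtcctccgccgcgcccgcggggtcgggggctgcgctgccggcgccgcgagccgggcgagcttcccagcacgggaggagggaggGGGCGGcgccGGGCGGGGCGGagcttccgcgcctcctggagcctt
AREG, chr4:74444886-74445133, plus strand: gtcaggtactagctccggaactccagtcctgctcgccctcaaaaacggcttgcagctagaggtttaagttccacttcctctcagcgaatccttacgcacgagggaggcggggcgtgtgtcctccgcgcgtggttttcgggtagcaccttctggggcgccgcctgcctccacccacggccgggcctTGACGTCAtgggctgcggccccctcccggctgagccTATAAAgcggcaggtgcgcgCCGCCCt
EREG, chr4:74364895-74365142, plus strand: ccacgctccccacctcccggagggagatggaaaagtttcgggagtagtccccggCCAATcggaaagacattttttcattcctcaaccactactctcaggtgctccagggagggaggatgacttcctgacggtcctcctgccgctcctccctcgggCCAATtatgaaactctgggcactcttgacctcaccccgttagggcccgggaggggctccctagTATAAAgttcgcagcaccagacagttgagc

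Over the full 300 bases, AREG held 1 cAMP response element, which 1.85% of the 35116 promoter windows of the same length also held, along with 1 TATA box (11.5% of windows) and 1 GC box (45.0%). EREG had 2 CCAAT boxes (34.6% of windows) and 1 TATA box but no GC box. HBEGF had 5 GC boxes, the first start of EGFR had 3 and ERBB4 had 1, and none of these windows held the other motifs. A second start of EGFR, 3′ of the first, had 2 AP-1 elements (7.71% of windows) and 2 TATA boxes. The first of the TGFA windows held 4 GC boxes and that of BTC held 1. Before the starts of TGFA and BTC, the longest runs outside exons were 61 and 87 bases, too short to be printed. The second EGFR window is not printed either. The ERBB2 window held 1 AP-1 element and 1 CCAAT box, but it overlapped exons of ERBB2 and PGAP3 throughout and is not printed. These matches are descriptions of letters, and none of the 5 motifs was held by all of the genes that fell in SK-OV3 and by none of those that did not pass. ERBB3 and GRB7, which did not pass there, had no window. Whether a motif goes with the response was not tested.

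The genes whose pattern over the 12 libraries was most like that of a receptor were found by the root mean square difference of log2 CPM, each gene centred on its own mean, among 10274 genes with a mean of at least 10 CPM. For EGFR they were NID2 (0.110), INCENP (0.120) and CELSR2 (0.130). For ERBB2 they included DMTN (0.127) and SMARCA2 (0.146). Before the log2, 0.5 was added to each CPM. With DMSO, DMTN and SMARCA2 were at 0.0677 and 0.365 CPM in PA-1, against 23.9 and 29.2 CPM in SK-OV3. Their closeness to ERBB2 therefore depends on that 0.5. Much of this likeness is the difference between the lines, which all these genes share.

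Finally, 58 other genes of the pathway in 7 lists were examined for their response to BAY-850. In SK-OV3, 55 could be tested, of which 7 rose and 4 fell, with a median log2 fold change of 0.02 against -0.01 over all genes. In PA-1, 56 could be tested, of which 2 rose and 0 fell, with a median of 0.04 against -0.002 over all genes. These shares of called genes are close to or below those among all genes given above. The changes in SK-OV3 lay in 4 of the lists, and the genes with a change of at least 1.5-fold were DUSP6 and PIK3R3.

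Of the 4 genes for release of ligands, 3 rose in SK-OV3 (median of the list 0.41), namely the protease gene ADAM17 (0.33) and the genes of its partners RHBDF1 (0.53) and RHBDF2 (0.48), while ADAM10 did not pass. Over all genes tested in SK-OV3, 10.8% rose. In PA-1, 0 of the 4 passed in edgeR, also at an unadjusted p under 0.05. The response differed between the lines for RHBDF1 (edgeR interaction, adjusted p = 7.51e-04). For ADAM17 and RHBDF2 a difference between the lines did not pass (edgeR interaction, adjusted p = 0.712 and 0.216). ADAM17, RHBDF1, RHBDF2 and the genes below with changes under 1.5-fold were named after their values were seen. Their values without SK-OV3 BAY-850 replicate 3 were not examined. Of 10 genes known as output of the MAPK pathway, 2 fell and 2 rose in SK-OV3 (median 0.02) and 0 passed in PA-1 (median 0.03, edgeR), where 3 were higher at an unadjusted p under 0.05. The phosphatase gene DUSP6, a feedback inhibitor of ERK, went from 22.0 ± 1.25 to 12.1 ± 1.31 CPM (SD, n = 3, log2 fold change of -0.85, SE 0.11, edgeR adjusted p = 2.54e-04), and its response differed between the lines (edgeR interaction, adjusted p = 1.38e-04). DUSP4 (-0.55) also fell, whereas PHLDA1 (0.53) and the transcription factor gene ETV5 (0.40) rose, so the list did not move in 1 direction. A difference between the lines passed for PHLDA1 and ETV5 but not for DUSP4 (edgeR interaction, adjusted p = 6.41e-05, 0.00849 and 0.0757).

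Among 11 genes of PI3K and AKT, 2 regulatory subunits of PI3K fell in SK-OV3 (median of the list 0.06). PIK3R3 went from 9.51 ± 0.611 to 5.40 ± 1.24 CPM (SD, n = 3, log2 fold change of -0.81, SE 0.18, edgeR adjusted p = 0.00844) and PIK3R1 had a log2 fold change of -0.56, while PIK3R2 rose in PA-1 by 0.27. A difference between the lines passed for PIK3R1 and PIK3R2 but not for PIK3R3 (edgeR interaction, adjusted p = 0.0133, 0.0103 and 0.165). Of 8 genes for adaptors and docking proteins, GAB2 (0.44) and GRB10 (0.34) rose in SK-OV3 and 0 passed in PA-1 in edgeR, where 1 was higher and 1 lower at an unadjusted p under 0.05. For GAB2 and GRB10 a difference between the lines did not pass (edgeR interaction, adjusted p = 0.1048 and 0.1045). Of 10 genes from RAS to ERK, 0 passed in SK-OV3 in edgeR, with 1 higher at an unadjusted p under 0.05, and MAP2K1 rose by 0.30 in PA-1. The gene higher in SK-OV3 was also MAP2K1 (0.17, edgeR adjusted p = 0.0544). Its response did not differ between the lines by the test (edgeR interaction, adjusted p = 0.26). Of 9 genes for brakes on the receptors, 0 passed in edgeR in either line, while at an unadjusted p under 0.05 2 were higher and 2 lower in PA-1 and 4 were lower in SK-OV3. Of the 6 genes for other ligands, such as the neuregulins, 3 could be tested in SK-OV3 and 4 in PA-1, and 0 passed in edgeR, also at an unadjusted p under 0.05.

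**Figure D5:**
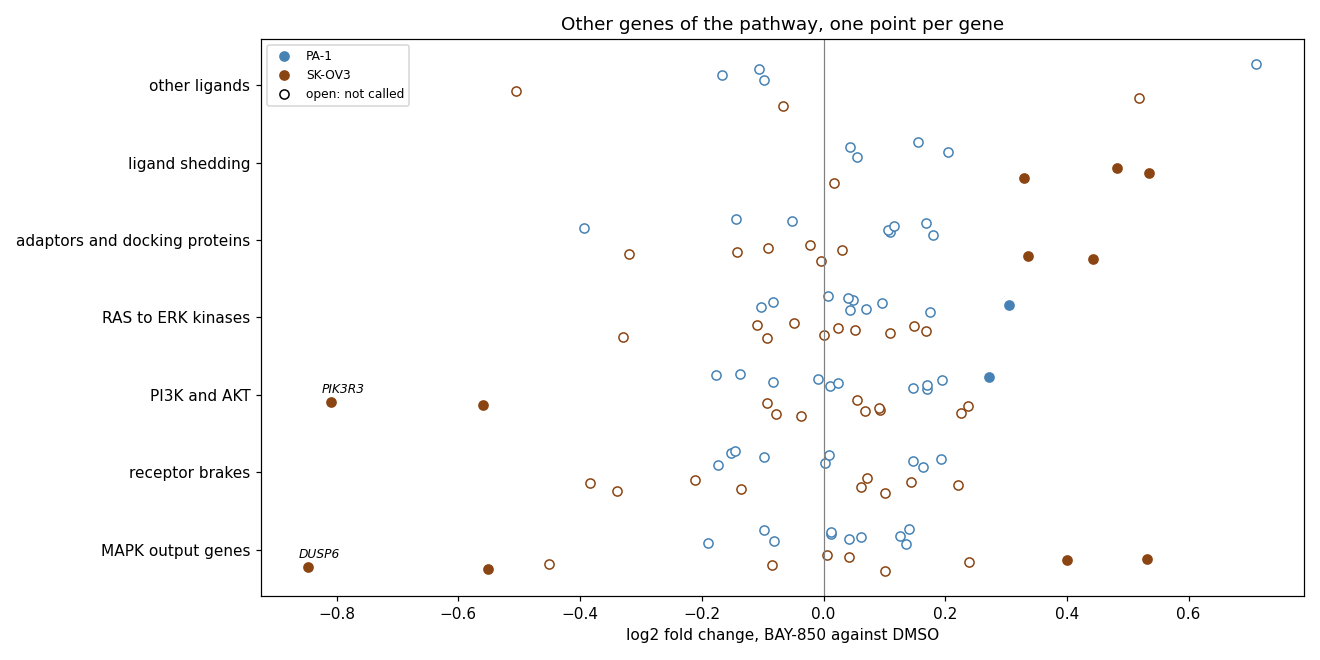
Log2 fold change of BAY-850 against DMSO (horizontal axis) for the tested genes of the 7 pathway lists (vertical axis), with 1 point per gene, PA-1 in blue and SK-OV3 in brown, filled for an adjusted p under 0.05. DUSP6 at -0.85 and PIK3R3 at -0.81 are the named genes, and the 3 filled points of ligand shedding lie between 0.33 and 0.53.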

How the data were processed

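RNA of 12 libraries was sequenced, 3 biological replicates for each of the 4 groups. The authors deposited RSEM's expected counts by gene symbol, estimates that divide shared reads among genes, without normalization. The submitters' processing notes name Bowtie2 2.1.0, RSEM 1.2.15 and hg38; the annotation and the use of strand in counting are not given in the sources used here. The paper and the extraction notes describe oligo-dT beads and strand-specific libraries, and the design text describes depletion of ribosomal RNA. Reads of overlapping genes, and of EGFR and its antisense gene, cannot be told apart without strand.

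Expected counts were rounded to whole numbers. With edgeR 4.0.16 in R 4.3.3, TMM factors, the filter filterByExpr and the quasi-likelihood test were applied within each line, between the lines with DMSO, and, for the interaction, to all 12 libraries, with Benjamini-Hochberg adjustment over all genes tested and a threshold of 0.05. The SE is the log2 fold change divided by the square root of F. Levels are TMM-scaled CPM. Positions and exon lengths came from the GENCODE annotation of GRCh38, matched for 24627 of 26475 symbols. Alternatives used DESeq2 1.42.0, limma 3.58.1, other scalings and filters, a replicate block, a loess correction for GC content, 1 fit of all libraries and each library left out. Leaving 1 library out of the ERBB2 to GRB7 ratio was added after seeing the data. The tests within each line and between the lines were also run on simulated counts, with outcomes not given here. The interaction test was not run on simulated counts.

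The 10 genes were set by name. Of the pathway lists, genes called with at least a 1.5-fold change were named by rule, near ERBB2 those called with a log2 difference of at least 1 and the direct neighbours, and the 3 genes most like EGFR and ERBB2, of which 1 is not reported here. Members and lists were chosen with earlier results of these data known. The spread between replicates of a group exceeded sampling noise (5.05 to 72.7 as chi-square over degrees of freedom), and p-values measure the spread between these samples. Genes with few counts are limited by depth, and intervals on counts cover counting error only.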

Additional observations from a re-analysis of the deposited data

Results flagged for a closer look

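The responses of 2 receptors to BAY-850 differed between the lines by the test of the interaction. For ERBB2, the log2 fold change in SK-OV3 minus that in PA-1 was -0.63 (edgeR's quasi-likelihood test, adjusted p = 0.00166), with the 3 treated libraries below those with DMSO in SK-OV3 and above them in PA-1. For EGFR, the difference was -0.57 (edgeR adjusted p = 0.0329), with the treated libraries above those with DMSO in PA-1 and overlapping in SK-OV3. For ERBB2 the adjusted p stayed at or below 0.00933 in 21 alternatives, and for EGFR it ranged from 0.00481 to 0.0984.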

How the results depend on the processing

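In SK-OV3, the falls of ERBB2, ERBB4 and TGFA passed in all 16 alternatives, with log2 fold changes of -0.50 to -0.34, -1.42 to -1.10 and -0.53 to -0.36. HBEGF passed in 14, and EGFR in PA-1 in 10 of 16. In PA-1, 707 genes rose and 378 fell at first, 235 and 231 with scaling by library size only, 392 and 143 with the GC trend removed, and 469 and 214 with all 12 libraries in 1 fit, and DESeq2 and no filter gave 726 and 588 that fell. Leaving out 1 PA-1 library gave 273 to 810 that rose and 65 to 418 that fell. Of the members in PA-1, 0 rose with scaling by library size only and in the fit of all 12 libraries, 2 rose with DESeq2, with no filter and with at least 10 counts in every library, and 0 to 1 when 1 library was left out; the second gene was ERBB2. In SK-OV3, leaving out 1 library gave 993 to 2050 genes that rose and 788 to 1852 that fell. For the interaction, library size only gave 773 genes called lower, and 1 member instead of 2 was called lower with library size only, limma-voom, the GC trend removed, or the replicate block; leaving out 1 library gave 1 to 2. With at least 10 counts in every library, 4 members were called higher in SK-OV3 than in PA-1, since the others were no longer tested. The cause of the other changes was not tested.

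Values near 0 changed sign: in PA-1, ERBB3 with library size only (-0.0065) and the GC trend removed (-0.017), and GRB7 with the GC trend removed (-0.0452) and in the range of -0.0478 to 0.15 when 1 library was left out. In the interaction with the GC trend removed, ERBB3 was 0.0065 and GRB7 0.0763, and with 1 library left out they ranged over -0.49 to 0.20 and -0.14 to 0.0618. HBEGF between the lines was -0.0335 with the GC trend removed. In SK-OV3 with 1 library left out, log2 fold changes ranged over -0.68 to 0.10 for BTC, -0.47 to 0.23 for ERBB3, -0.0654 to 0.15 for EREG and -0.0672 to 0.0941 for GRB7. None of these passed the test.

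Samples with the same replicate number did not deviate together (correlations of -0.028 to 0.004). Since deviations were taken from means of few libraries, this check cannot tell whether such samples shared a culture or batch. With the replicate block, 624 and 307 genes rose and fell in PA-1. In SK-OV3 it was 1449 and 1267, against 1662 and 1468 without the block, and the 4 members that fell in SK-OV3 passed with it. Other scalings moved the median of all genes by at most 0.047 on the log2 scale.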
